A study of Rattus norvegicus with 6 samples.

Results

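The cytosolic HSP70 and HSP110 chaperone genes are described here in primary mesenchymal stem cells from the femoral marrow of wild-type rats, exposed to cigarette smoke extract (CSE). The 9 genes are Hspa1a, Hspa1b, Hspa2, Hspa4, Hspa4l, Hspa8, Hspa12a, Hspa14 and Hsph1, taken by symbol out of 37209 gene rows in the table. The 3 CSE libraries came from cells given 3% CSE for 6 h, and the 3 control libraries from cells kept for 6 h in serum-free medium. The diluent of the extract is not stated, and neither is whether replicate libraries stem from different cultures or rats. The p-values therefore refer to the spread among these 6 libraries, which may be technical.

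HSP70 proteins hold exposed hydrophobic stretches of unfolded proteins in a cycle driven by ATP. J proteins deliver the clients and start ATP hydrolysis, and nucleotide exchange factors release ADP and the client. The HSP110 proteins, encoded by Hsph1, Hspa4 and Hspa4l, are distant HSP70 relatives that act as such exchange factors. Hspa8 encodes HSC70, the constitutive form that most cells make at all times, whereas Hspa1a and Hspa1b encode the inducible form, whose transcription is switched on by the heat shock factor HSF1 when damaged proteins accumulate.

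Most of the 9 genes were higher after CSE. Hspa1a, Hspa1b, Hspa2, Hspa4, Hspa4l, Hspa8 and Hsph1 rose, Hspa14 fell and Hspa12a did not pass the test. That is 7 of 9 called higher and 1 called lower by edgeR's quasi-likelihood test (Benjamini-Hochberg adjusted p under 0.05), against 36.3% and 37.5% of all 13390 genes tested. Of the 7 that rose, 6 rose at least 2-fold, which 10.7% of all tested genes did, and Hspa2 stayed just below. The groups did not overlap in 8 of the 9, nor in 75.8% of all tested genes. The median log2 fold change of the 9 was 2.52, also with Hspa1a at its lower bound, against −0.02 over all tested genes. All 9 passed the filter on low counts, but Hspa1a did so through the CSE libraries alone, so its call was fixed by the filter. Without it, 6 of 8 were called higher, 5 of them at least 2-fold. The groups then did not overlap in 7 of 8, and the median was 1.95.

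Library totals lay between 15958621 and 22589327 counts, with all CSE totals above all control totals. Levels are normalized counts per 1000000 counts of the TMM-scaled library size (CPM), on which 3 counts amount to between 0.142 and 0.177 CPM. They are not divided by gene length, so they compare libraries and not genes. Of all tested genes, 73.9% were called in either direction. Other scalings moved the median log2 fold change of all genes by −0.14 (upper-quartile factors) and −0.19 (total counts alone), and the higher share of the called genes from 49.2% to 40.3% and 37.2%. All 10 stromal markers were measured, and 4 were called higher and 5 lower, beside 36.3% and 37.5% of all tested genes. Among the 4, Vcam1 was at only 0.324 CPM in the control. It passed the filter on low counts through the CSE libraries alone, so its call was fixed by the filter. Cd44 rose 2.13-fold, Thy1 and Itgb1 each 1.20-fold, and Eng (1.04-fold) did not pass. Pdgfra, Pdgfrb, Prrx1 and Nt5e fell to 0.511, 0.547, 0.519 and 0.537 of their control level, and Col1a1 to 0.906. The summed level of the 10 stromal markers was 31298.5 to 32579 CPM with CSE and 31965 to 35160 CPM in the control. It was mostly Col1a1 (26096 and 28797 CPM). The 8 leukocyte and macrophage markers summed to 315 to 337 CPM with CSE and 384 to 391 CPM in the control, with Cd3e at 0 in every library. Of the 6 tested, Cd14 (0.365-fold), the pan-leukocyte gene Ptprc (0.797-fold) and Csf1r (0.841-fold) fell, Cd68 rose (1.10-fold), and Itgam (0.919-fold) and Adgre1, listed as Emr1 (1.00-fold), did not pass. The 3 erythroid markers were at 0, and the 4 endothelial markers summed to 3.46 to 4.34 CPM with CSE and 6.42 to 7.59 CPM in the control. The part of these other cells in the changes below was not tested. In such bulk libraries fewer cells of a type and less RNA per cell cannot be told apart.

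**Figure D1:**
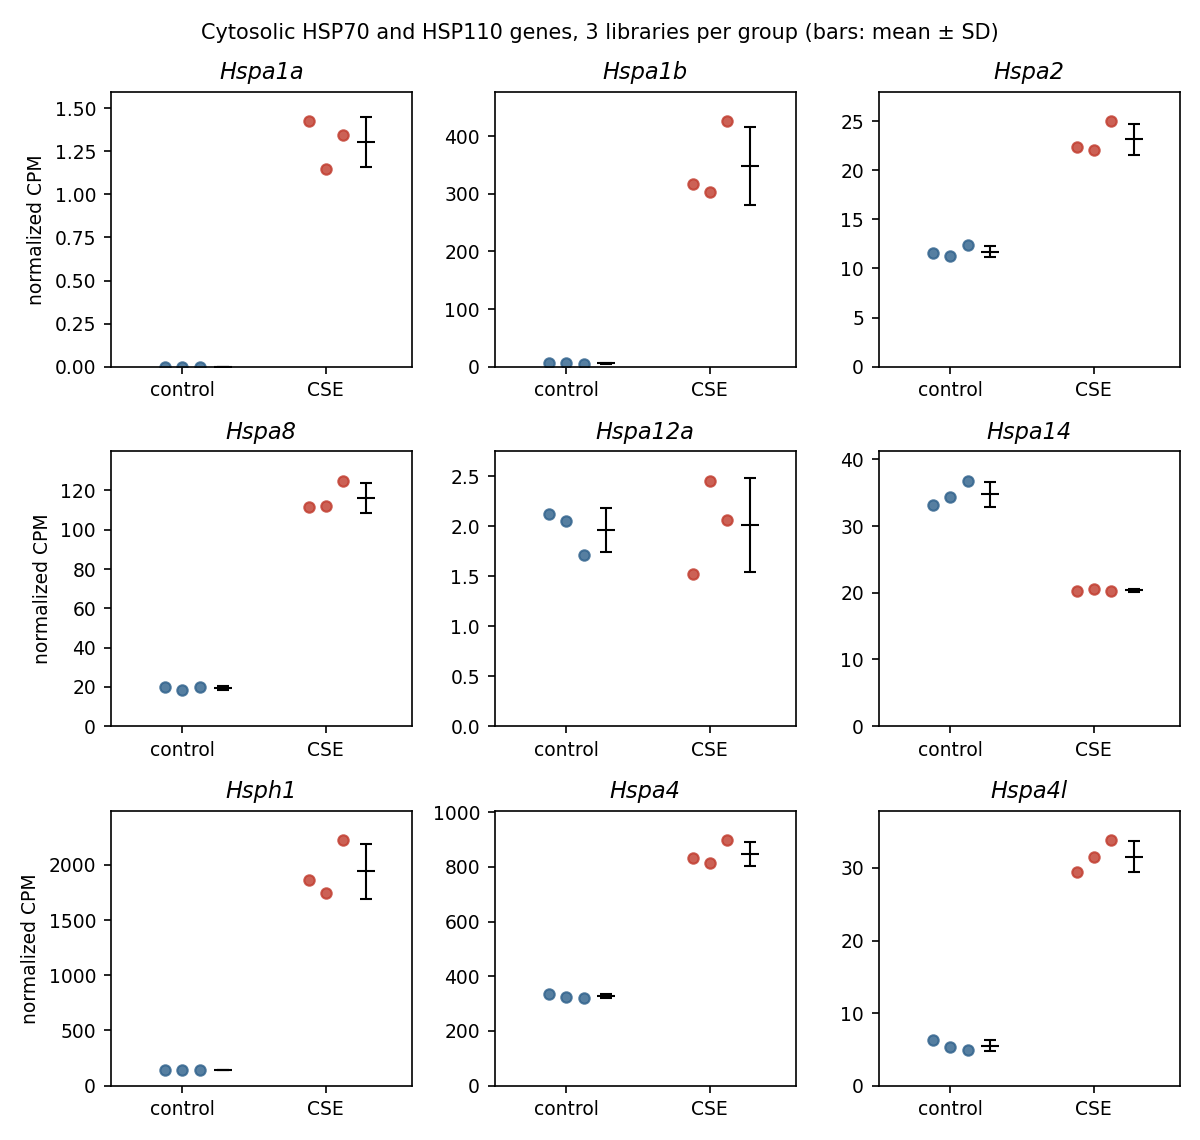
Normalized CPM of each of the 9 genes in 3 control and 3 CSE libraries, 1 point per library with the mean and SD beside the points; each panel has its own axis from 0. The groups are apart in 8 panels, with CSE above in 7 and below for Hspa14, and overlap for Hspa12a.

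The HSP70 and HSP110 genes include textbook targets of HSF1, which binds heat shock elements made of alternating GAA and TTC units, so the sequences before their start sites are shown. Windows of 250 bases before the annotated start were read from RefSeq for build GRCr8, which is not the build named for the counts, and 7 of the 9 genes had one. The windows were searched on both strands for an element of 2 units (GAANNTTC or TTCNNGAA) and for one of 3 units, which extends either form by a further alternating unit at the same spacing and so contains a 2-unit match. The 3-unit element was found before Hspa8 and Hsph1, that is in 2 of 7 windows, and in 0.663% of all 33469 windows of the table. The 2-unit element was found before Hspa2, Hspa8 and Hsph1, and in 13.5% of all windows. The windows of these 3 genes, all of which rose, and of Hspa14, the gene that fell, are printed 5′ to 3′ with the heat shock element matches in capitals.
Hspa8, chr8:50080264-50080513, plus strand: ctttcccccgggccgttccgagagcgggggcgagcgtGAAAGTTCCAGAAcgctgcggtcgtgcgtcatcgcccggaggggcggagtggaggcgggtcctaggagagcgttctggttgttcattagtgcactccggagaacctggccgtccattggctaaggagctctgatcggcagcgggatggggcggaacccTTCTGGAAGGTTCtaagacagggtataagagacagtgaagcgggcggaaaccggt
Hsph1, chr12:10427118-10427367, plus strand: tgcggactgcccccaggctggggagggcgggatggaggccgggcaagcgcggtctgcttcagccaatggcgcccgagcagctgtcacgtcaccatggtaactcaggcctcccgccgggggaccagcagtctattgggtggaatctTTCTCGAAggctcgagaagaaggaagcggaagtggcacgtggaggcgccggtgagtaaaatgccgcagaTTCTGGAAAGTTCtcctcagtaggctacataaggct
Hspa2, chr6:100864192-100864441, plus strand: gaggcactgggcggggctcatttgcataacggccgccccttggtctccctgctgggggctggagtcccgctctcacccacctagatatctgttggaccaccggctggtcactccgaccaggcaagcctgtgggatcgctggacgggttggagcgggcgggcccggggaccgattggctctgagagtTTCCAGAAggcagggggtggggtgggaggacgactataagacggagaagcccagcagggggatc
Hspa14, chr17:79637856-79638105, plus strand: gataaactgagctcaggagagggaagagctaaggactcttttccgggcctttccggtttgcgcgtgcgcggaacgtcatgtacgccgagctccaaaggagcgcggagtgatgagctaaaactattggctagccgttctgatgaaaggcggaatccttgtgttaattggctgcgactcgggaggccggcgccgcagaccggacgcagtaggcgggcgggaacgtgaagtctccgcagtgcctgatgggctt
Hspa8 held a pair of 3-unit matches, from base −213 to −201 and from −55 to −43 before the start. Hsph1 held 1, from −36 to −24, and a further 2-unit match from −105 to −98. Hspa2 held 1 match of 2 units, from −64 to −57. Hspa4 and Hspa4l, which also rose, had no heat shock element match, and neither had Hspa14 or the window that RefSeq gives for Hspa1a. The annotated start of Hspa1a lies inside Hspa1l, so that window may not be the promoter in use, and Hspa1b, the copy with nearly all counts, had no window. The CCAAT box (CCAAT), a common promoter motif, was found in 5 of 7 windows and in 34.0% of all windows. The antioxidant response element core (TGACNNNGC), which NRF2 binds, and the exact TATA box string TATAAA were in none of the 7. They were in 10.1% and 12.9% of all windows, and in 12.4% and 6.55% of the windows of tested genes. Variants of the TATA box were not searched, and TATAAG stands in the printed Hspa8 and Hspa2 windows. A match is a description of letters, and its absence says only that these letters are not in the window.

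**Figure D2:**
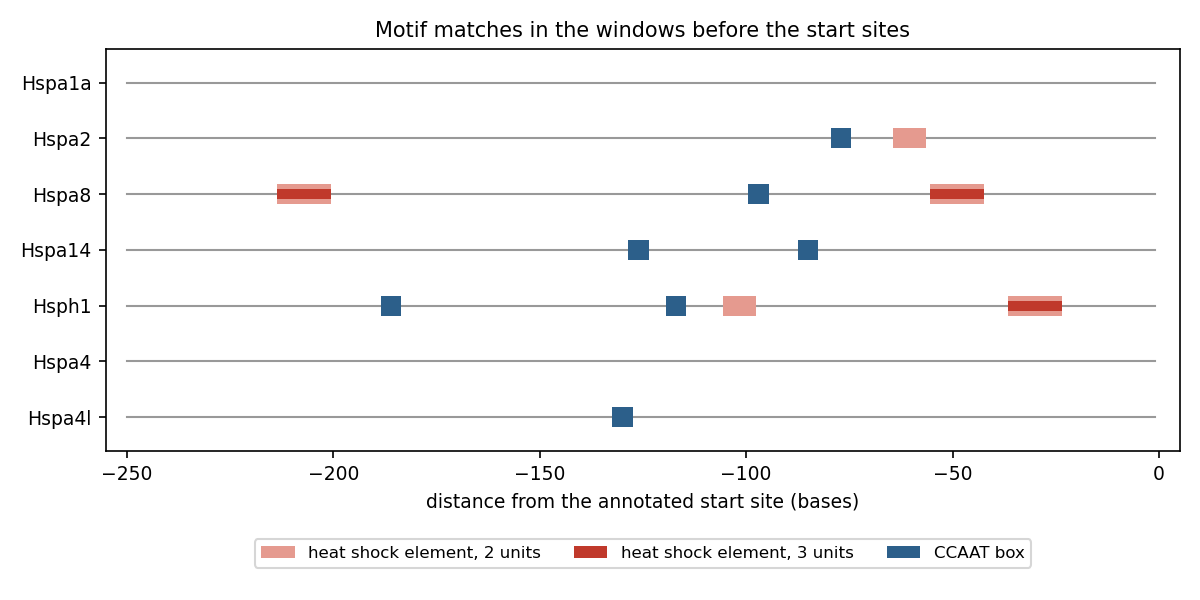
Positions of heat shock element and CCAAT matches, in bases before the annotated start site, for the 7 genes with a window; each line is 1 window of 250 bases. The 3-unit elements lie in the Hspa8 and Hsph1 windows, and the Hspa4 window has no match to any motif drawn, as has that of Hspa1a, whose annotated start lies inside Hspa1l and may not mark its promoter.

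Of the inducible HSP70 genes, Hspa1b rose from a low to a clear level, and Hspa1a from no counts to a level near 1 CPM. Hspa1b, encoding the stress-inducible HSP70, was at 5.59, 5.80 and 5.30 CPM in the control libraries and at 316, 303 and 425 CPM in the CSE libraries. Even the lowest CSE library was far above every control library. The mean rose from 5.56 ± 0.252 to 348 ± 67.1 CPM (SD, n = 3), 62.6-fold, with a log2 fold change of 5.97 ± 0.13 (SE, 95% interval 5.69 to 6.25, edgeR adjusted p = 1.5e-16). By size of rise it was number 39 of the genes tested.

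Hspa1a encodes nearly the same protein from a neighbouring gene on chromosome 20. It had 30, 21 and 26 counts in the CSE libraries and 0 in each control library, or 1.42, 1.15 and 1.34 CPM with CSE. Against a floor of 3 counts over the whole control group it was at least 24.4-fold higher. Its p is not given, since it passed the filter only where it was high. Hspa1a held 0.375% of the counts that both rows had with CSE. Reads of such near-identical copies may have been split between the rows or dropped, so the level of each row alone is uncertain. Summed into 1 row, both genes rose 62.8-fold, from 5.56 ± 0.252 to 349.5 ± 67.2 CPM (SD, n = 3). In the RefSeq table Hspa1a also overlaps Hspa1l, an HSP70 gene known for expression in the testis, and without a stated strand setting their reads cannot be told apart. Hspa1l itself rose from 3.23 ± 0.473 to 7.13 ± 1.13 CPM (SD, n = 3), a log2 fold change of 1.14 ± 0.17 (SE, edgeR adjusted p = 1.1e-05).

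The constitutive gene Hspa8 rose as well, and most counts of its sequence family stood on pseudogene rows. The Hspa8 row was at 19.9, 18.4 and 19.9 CPM in the control libraries and at 112, 112 and 125 CPM with CSE. All CSE libraries were above all control libraries. The mean rose 5.99-fold, from 19.4 ± 0.833 to 116 ± 7.47 CPM (SD, n = 3), and the log2 fold change was 2.58 ± 0.07 (SE, edgeR adjusted p = 1.0e-15).

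Processed pseudogenes are copies of a spliced mRNA inserted back into the genome, and RefSeq names 35 pseudogenes after Hspa8 or its older name Hsc70. Of these, 30 had a row in the count table, 14 of them at 0 in every library. The pseudogene rows together held 25742, 21379 and 23410 counts in the CSE libraries, where the Hspa8 row held 2352, 2059 and 2416. In the control libraries they held 4113, 3616 and 4023 counts, against 338, 350 and 394. Pseudogene rows thus took between 90.6% and 92.4% of the counts of the family in every library, and 5 rows took 99.1% of the pseudogene counts. The row that RefSeq names Hspa8-ps25 rose 5.56-fold from 93.1 ± 16.7 to 516 ± 14.7 CPM, and that of Hspa8-ps22 rose 5.77-fold from 64.0 ± 6.65 to 370.0 ± 16.3 CPM (SD, n = 3, edgeR adjusted p = 4.6e-14 and 1.0e-15). These are the largest pseudogene rows and were named after their values were seen. All 7 pseudogene rows that passed the filter were called higher, beside 36.3% of all tested genes. Their rises lay between 5.23-fold and 6.92-fold, around the 5.99-fold of Hspa8. The upper end is Hsc70-ps1, with only 19, 12 and 7 counts in the control libraries. These rows may share reads with each other and with Hspa8, so they are not 7 separate results.

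With the Hspa8 row and its 30 pseudogene rows summed into 1, a choice made after seeing the counts, the level was 231 ± 27.5 CPM in the control and 1315 ± 32.1 CPM with CSE, a 5.69-fold rise (SD, n = 3, edgeR adjusted p = 1.1e-15). The fold was thus close to that of the Hspa8 row alone, while the pseudogene rows held 9.69 to 12.2 times the counts of the Hspa8 row in single libraries. Reads of Hspa8 mRNA and reads of the copies cannot be told apart in this table, and the family sum was 10.7 to 13.2 times the Hspa8 row.

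**Figure D3:**
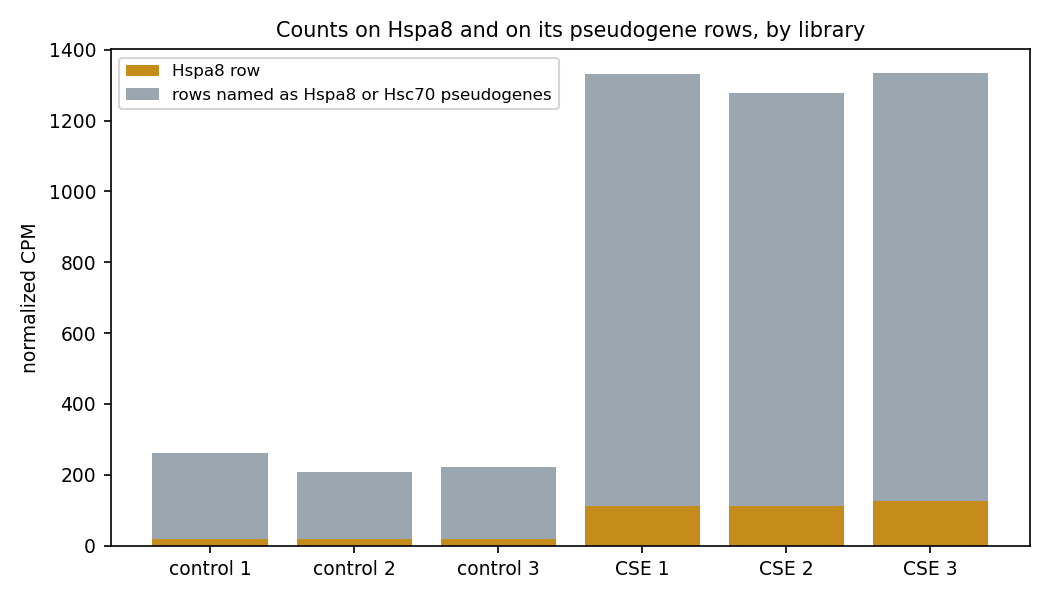
Stacked normalized CPM of the Hspa8 row and of the rows that RefSeq names as its pseudogenes, in each library. The Hspa8 row is the small lower section of every bar, and the sum lies between 209 and 262 CPM in the control and between 1278 and 1335 CPM with CSE.

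The remaining HSP70 genes of the group did not move together. Hspa2, best known from male germ cells, was at 11.5, 11.2 and 12.4 CPM in the control and at 22.3, 22.1 and 25.0 CPM with CSE. The groups were apart, and the log2 fold change was 0.98 ± 0.09 (SE, n = 3, edgeR adjusted p = 2.4e-08), or 1.97-fold.

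Hspa14 encodes the HSP70 partner of the ribosome-associated complex, which receives new protein chains as they leave the ribosome. It was at 33.2, 34.3 and 36.8 CPM in the control and at 20.2, 20.6 and 20.3 CPM with CSE. It was the 1 gene of the 9 with every CSE library below every control library. Its log2 fold change was −0.77 ± 0.07 (SE, n = 3, edgeR adjusted p = 2.0e-08). Dnajc2, the J protein gene of the same complex, was higher with CSE, from 39.9 ± 0.936 to 63.9 ± 2.18 CPM (SD, n = 3, log2 fold change 0.68 ± 0.06, SE, edgeR adjusted p = 8.0e-09), and was named after its values were seen.

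Hspa12a, a divergent family member, was at 2.12, 2.06 and 1.72 CPM in the control and at 1.52, 2.45 and 2.07 CPM with CSE. The groups overlapped, and its log2 fold change of 0.03 ± 0.25 (SE, n = 3, 95% interval −0.51 to 0.57) was not past the threshold (edgeR adjusted p = 0.916). It was below 0 with upper-quartile factors (−0.10) or unscaled library totals (−0.16), and also without CSE replicate 2 (−0.12) or without control replicate 3 (−0.07). Between 32 and 45 counts per library stood behind it, so a change within that interval was not detectable at this depth.

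All 3 HSP110 genes rose, by unequal amounts. Hsph1, encoding the heat-inducible HSP105, was at 139.6, 139.6 and 139.7 CPM in the control libraries and at 1862, 1744 and 2222 CPM in the CSE libraries. Its log2 fold change was 3.80 ± 0.07 (SE, n = 3, edgeR adjusted p = 2.6e-17), or 13.9-fold, and by size of rise it was number 132 of the genes tested. The control libraries were almost level, and all CSE libraries stood far above them.

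Hspa4, encoding the widely expressed APG-2, was at 336, 325 and 321 CPM in the control and at 832, 815 and 897 CPM with CSE. It rose 2.59-fold (log2 fold change 1.37 ± 0.05, SE, n = 3, edgeR adjusted p = 4.9e-14). Hspa4l, encoding APG-1, was at 6.30, 5.32 and 4.89 CPM in the control and at 29.4, 31.5 and 33.8 CPM with CSE. It rose 5.75-fold (log2 fold change 2.52 ± 0.10, SE, n = 3, edgeR adjusted p = 5.7e-13). No control library reached a CSE library for either gene.

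**Figure D4:**
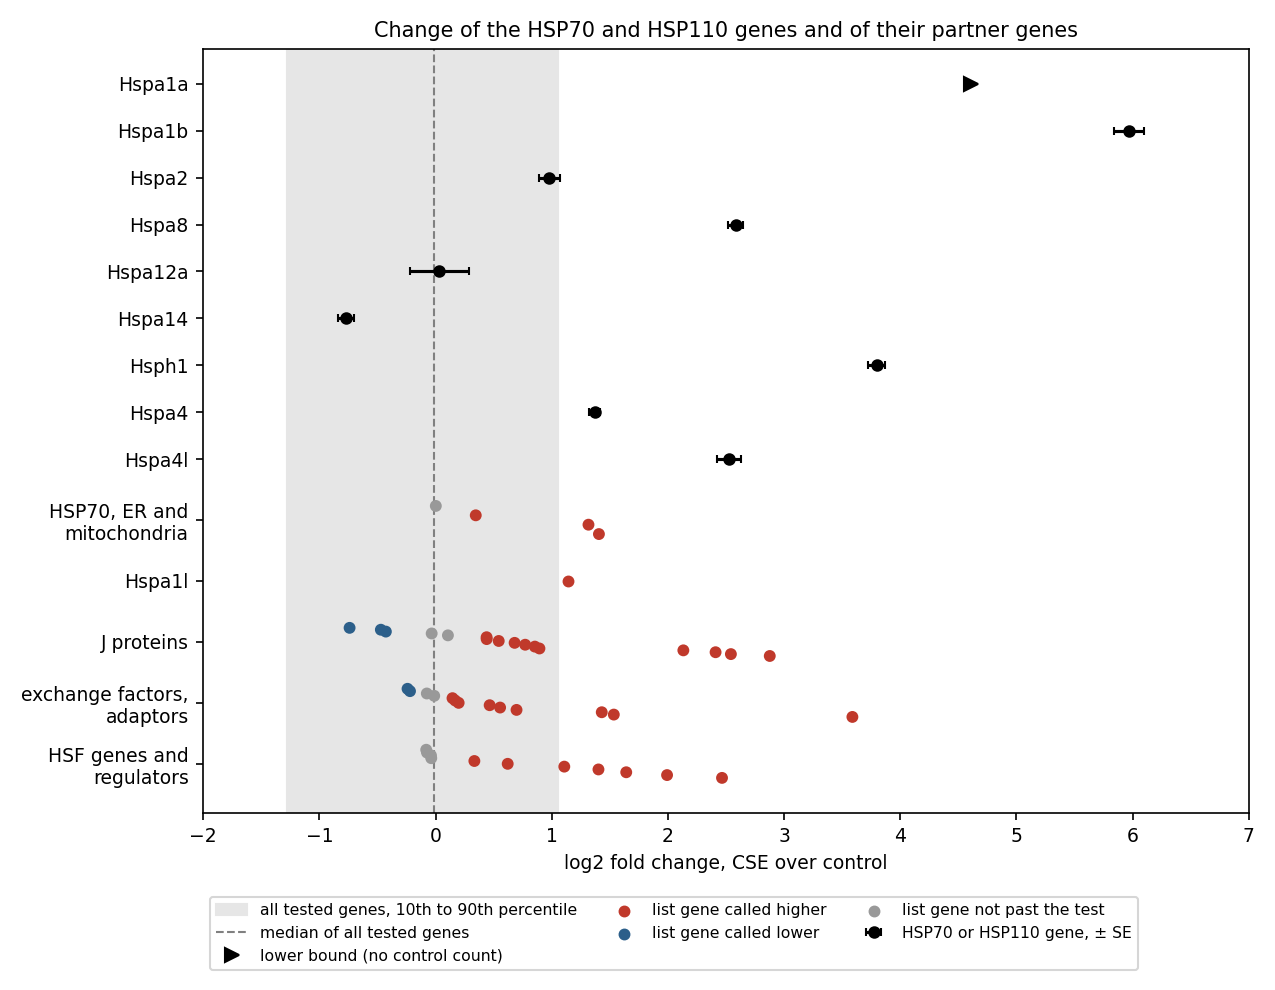
Log2 fold change of CSE over control for the 9 genes (black, ± SE) and for the tested genes of 5 partner lists (colours by call), over the 10th to 90th percentile of all tested genes (grey, −1.28 to 1.06). Hspa1a is drawn at its lower bound of 4.61, and 6 of the 9 genes lie above the grey band. Hspa1a is among these 6, although it passed the filter on low counts through the CSE libraries alone.

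Ratios between genes within a library do not depend on how libraries are scaled, and 9 such ratios were compared between groups. With 3 libraries against 3 the smallest exact 2-sided permutation p is 0.1, so none can pass 0.05. The log2 ratio of Hspa1b to Hspa8 went from −1.80 ± 0.12 in the control to 1.57 ± 0.18 with CSE (SD, n = 3, exact permutation p = 0.1), a difference of 3.37. Hsph1 gained 1.21 on Hspa8, 1.27 on Hspa4l and 2.42 on Hspa4 on the log2 scale. The ratio to Hspa8 changed by −1.21 for Hspa4, −1.60 for Hspa2, −2.57 for Hspa12a and −3.35 for Hspa14. Each of these 8 ratios had an exact permutation p of 0.1 and an adjusted p of 0.1125 over the 9. For Hspa4l and Hspa8 the log2 ratio differed by −0.06 between groups (exact permutation p = 0.6), and by −0.16 to 0.02 when single libraries were left out.

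The 9 genes together took 0.0590%, 0.0582% and 0.0576% of all counts in the control libraries and 0.298%, 0.288% and 0.349% with CSE. The mean share was 5.35 times as large with CSE, 0.312 ± 0.0329% against 0.0583 ± 0.000715% (SD, n = 3). With the Hspa8 pseudogene rows added, it was 0.424 ± 0.0337% against 0.0808 ± 0.00341%. The make-up of that share shifted too. Hspa4 held between 59.3% and 60.6% of the counts of the 9 genes in the control and between 23.9% and 26.7% with CSE. Hsph1 went from between 25.2% and 25.8% to between 57.1% and 59.2%, and Hspa1b from between 0.978% and 1.07% to between 9.89% and 11.3%. Hspa14 went from between 5.99% and 6.79% to between 0.540% and 0.675%, whereas the Hspa8 row held between 3.33% and 3.68% in all 6 libraries. All of these are shares of reads, which longer transcripts also raise. The split leaves out the Hspa8 pseudogene rows, which held 90.6% to 92.4% of the counts of that family. The part of the Hspa8 family is therefore larger than the Hspa8 row shows, and the parts of the other genes are smaller beside it.

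**Figure D5:**
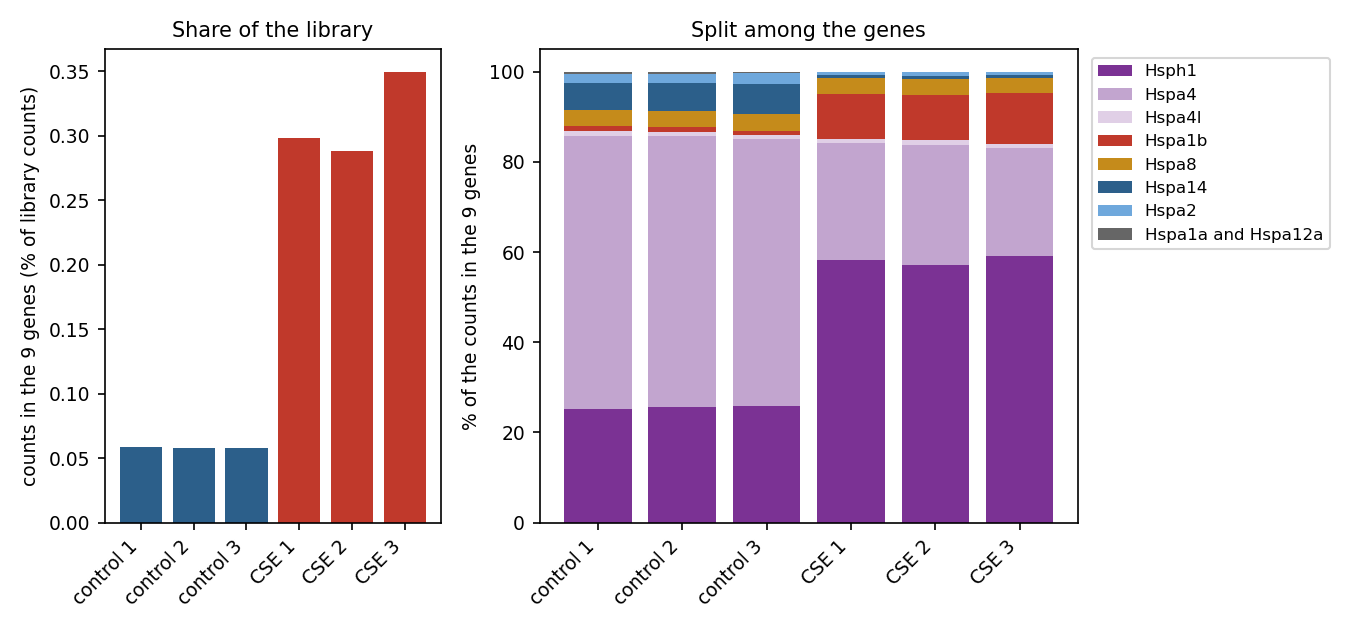
Left, counts in the 9 genes as a percentage of all counts in each library; right, the split of those counts among the genes, without the Hspa8 pseudogene rows. The share is at most 0.0590% in the control libraries and at least 0.288% in the CSE libraries, and the largest section is Hspa4 in the control and Hsph1 with CSE.

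Among the CSE libraries, replicate 3 had the highest level for 6 of the 9 genes (Hspa1b, Hspa2, Hspa4, Hspa4l, Hspa8 and Hsph1). The same held for 33.3% of all tested genes, and for 40.4% of those called higher. The spread between CSE libraries was widest for Hspa12a, with a coefficient of variation of 23.4%, followed by Hspa1b (19.3%) and Hsph1 (12.8%). In the control the coefficient of variation was 4.53% for Hspa1b and 0.0264% for Hsph1. Both are below what counting error alone gives at 95 to 110 and 2371 to 2768 counts per control library. They therefore do not measure the spread of the control. The control SDs given for Dnajb1, Dnaja1, Dnajc2 and Bag3 are below counting error too and have the same limit. A difference in spread between the groups was not tested. The log2 fold change of Hspa1b was between 5.80 and 6.06, and that of Hsph1 between 3.70 and 3.88, whichever library was left out.

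HSP70 genes of other compartments were mostly higher as well, with 3 of 4 called higher, beside 36.3% of all tested genes, and a median log2 fold change of 0.83. Hspa5, encoding BiP of the endoplasmic reticulum, was at 1099 ± 47.2 CPM in the control and 2912 ± 80.2 CPM with CSE (SD, n = 3, log2 fold change 1.41 ± 0.04, SE). Hspa9, encoding mortalin of the mitochondrial matrix, was at 314 ± 11.0 and 783 ± 18.4 CPM, with a log2 fold change of 1.32 ± 0.04. Hyou1, the HSP110 relative of the endoplasmic reticulum, had a log2 fold change of 0.35 ± 0.05. The edgeR adjusted p was at most 2.3e-06 for these 3. Hspa13, encoding a microsomal HSP70-like protein, was at 43.5 ± 2.72 and 43.5 ± 1.05 CPM and did not pass (edgeR adjusted p = 0.975), although with unscaled library totals it was called lower. Hspa12b had between 1 and 7 counts per library and was not tested, and no row was matched to Hspa6.

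The listed J protein genes, which start the HSP70 cycle and are only some of their family, were mostly higher. Of 16 tested, 11 rose, 3 fell and 2 were not past the threshold. The median log2 fold change was 0.61, against −0.02 over all tested genes, of which 36.3% were called higher and 37.5% lower. Dnajb1, encoding the main heat-inducible HSP40, went from 85.0 ± 0.422 to 625 ± 78.6 CPM (SD, n = 3), a log2 fold change of 2.88 ± 0.07 (SE). Dnaja1, which delivers clients to HSC70, went from 182 ± 1.54 to 969.6 ± 28.7 CPM, at a log2 fold change of 2.41 ± 0.04. Dnaja4 and Dnaja2 had log2 fold changes of 2.13 ± 0.07 and 0.77 ± 0.05. The edgeR adjusted p of these 4 was at most 8.0e-11. The 3 that fell, named after their values were seen, were Dnajc9 (−0.74 ± 0.07), which also binds histones, Dnajb5 (−0.47 ± 0.07) and Dnajb14 (−0.43 ± 0.11), a J protein of the endoplasmic reticulum membrane.

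Of 13 genes of exchange factors and adaptors, 9 rose, 2 fell and 2 were not past the threshold. Over all tested genes 36.3% were called higher and 37.5% lower. The list's median log2 fold change was 0.20, against −0.02. Bag3, an HSF1-induced exchange factor that links HSP70 to selective autophagy, went from 52.7 ± 0.462 to 633 ± 75.2 CPM (SD, n = 3), a log2 fold change of 3.59 ± 0.07 (SE). Stip1, encoding HOP, which hands clients from HSP70 to HSP90, had a log2 fold change of 1.53 ± 0.05. St13, encoding the HSP70-interacting protein HIP, was at 1.43 ± 0.06, and the adaptor gene Ttc1 at 0.56 ± 0.06. The edgeR adjusted p of these 4 was at most 2.4e-07. Stub1, encoding the ubiquitin ligase CHIP that marks HSP70 clients for degradation (−0.24 ± 0.07), and Fkbp8 (−0.22 ± 0.06) fell, and both were named after their values were seen. Bag2 (−0.01) and Hikeshi (−0.08), which carries HSP70 into the nucleus and is listed under its older symbol, did not pass. Over all alternatives 6 to 9 genes of this list were called higher and 2 to 4 lower.

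HSF genes and regulators of HSF1 numbered 7 higher, none lower and 4 not past the test among 11 tested, beside 36.3% higher and 37.5% lower over all tested genes. The median log2 fold change was 0.62, against −0.02. They included the HSP90 genes Hsp90ab1 (1.99 ± 0.04) and Hsp90aa1 (2.47 ± 0.07), whose proteins hold HSF1 inactive, the deacetylase gene Sirt1 (1.64 ± 0.08) and Hsf2 (1.40 ± 0.08). Hsf1 itself, named after its values were seen, went from 36.6 ± 1.73 to 46.1 ± 1.97 CPM (SD, n = 3), at a log2 fold change of 0.33 ± 0.06 (SE). The edgeR adjusted p of these 5 was at most 1.4e-04. With upper-quartile factors, and likewise with unscaled library totals, 3 genes of this list were called lower.

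The genes nearest to 3 of the chaperone genes over the 6 libraries were found by Euclidean distance. It was taken between log2 CPM values centred on the control mean, among 9949 other genes with a mean of at least 5 CPM. With this centring the distance mainly measures how alike the sizes of the rise are. Hspa1b was nearest to the aldehyde dehydrogenase gene Aldh3a1 (distance 0.77), then Osgin1 (0.88) and the haem oxygenase gene Hmox1 (0.88). Hspa8 was nearest to the phosphate transporter gene Slc20a1 (0.11), then Oser1 (0.13) and the folliculin gene Flcn (0.19). Hsph1 was nearest to the stress transcription factor gene Atf3 (0.22), then to the small heat shock protein gene Hspb1 (0.29) and Ppp1r15a (0.34). The log2 fold changes of these neighbours were between 6.29 and 6.95, between 2.52 and 2.64, and between 3.63 and 3.96.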

How the data were processed

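The authors deposited 1 table of raw read counts per gene symbol, whole numbers with no normalization, with 1 column for each of 6 libraries, matched to samples by name. The submitters' processing notes name HISAT2 2.0.4 and the build Rnor_6.0. No source used here gives the counting tool, strand setting or annotation, which bears on overlapping genes and near-identical copies. Genes were filtered with filterByExpr, scaled with TMM and tested with edgeR 4.0.16 in R 4.3.3 (quasi-likelihood F test, 2-sided, Benjamini-Hochberg over all 13390 tested genes, threshold 0.05). A standard error is the log2 fold change divided by the square root of F. The steps were tested on simulated counts in which most genes were unchanged. In these data 73.9% of the tested genes were called, so that simulation does not check the scaling used here. Within groups, chi-square per degree of freedom between libraries was 3.38 to 6.06, so none agreed within sampling noise. The floor of 3 counts covers counting error only. The genes named were the 9, up to 4 genes per partner list by smallest p (all of lists of up to 4), and the 3 nearest patterns, with later additions marked in the text. Genes and lists were chosen with earlier results of these data known. Alternatives were RLE, upper-quartile and total-count scaling, DESeq2 1.42.0, no filter, a replicate block, each library left out, and summed copies. Protein sequences were not used here.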

Additional observations from a re-analysis of the deposited data

How the results depend on the processing

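Of 110 values for the 9 genes under alternative settings, 106 kept their direction and their side of the 0.05 threshold. The 106 include 12 of Hspa1a, which had 0 counts in every control library, so these 12 are no sign of stability. The other 4 were changes of sign of Hspa12a, which passed in none. The log2 fold change of Hspa12a was −0.10 with upper-quartile factors, −0.16 with total counts alone, and −0.12 to 0.21 when single libraries were left out. The difference in the log2 ratio of Hspa4l to Hspa8 lay between −0.16 and 0.02 when single libraries were left out, the value without control replicate 1 being 0.0226, and the cause was not tested. Adding the Hspa8 pseudogene rows, chosen after seeing the data, moved the share of library counts to 0.424% with CSE and 0.0808% in the control because more rows are summed. With the replicate number as a block, 4821 genes were called higher and 4935 lower, against 4867 and 5027 without it, and no call among the 9 genes changed. Same-numbered libraries did not deviate together, with correlations of −0.09, 0.01 and −0.09 over 9950 genes, so the numbers are not taken as pairs. Across numbers the correlation was 0.22 for CSE 1 with control 3, 0.12 for CSE 3 with control 2 and 0.11 for CSE 2 with control 1. The remaining pairs were at −0.02, −0.12 and −0.13. A block by replicate number does not cover such a matching, and its source was not tested. Genes called higher numbered 3749 to 5366 and genes called lower 4641 to 6319 over all settings. Depth limits Hspa1a and Hspa12a, which had at most 45 counts in a library.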

Other observations

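Other genes, chaperone genes among them, share the 3-unit heat shock element that stands before Hspa8 and Hsph1. Of 37 other tested genes with such a match in their RefSeq window, 18 were called higher, 13 lower and 6 were not past the threshold. Their median log2 fold change was 0.14. The share called higher was 48.6%, against 37.9% of all 9059 tested genes with a window, and the difference was not tested. Some genes with the element are named here after their values were seen. Higher on the log2 scale were the oxidative stress gene Osgin1 (6.36) and the mitochondrial chaperonin genes Hspe1 (1.48) and Hspd1 (1.46). So were the superoxide dismutase gene Sod1 (1.29) and the collagen chaperone gene Serpinh1 (0.64). Lower were the histone deacetylase gene Hdac9 (−3.32) and Ogdhl (−2.85). They were picked from 18 genes called higher and 13 called lower, so they do not stand for the list. For the 2-unit element, 38.0% of 979 other tested genes with a match were called higher.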
